A study of Mus musculus with 6 samples.

Results

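The small nucleolar RNA host genes of the Snhg series and Gas5 were examined in exosomes of mouse skin cells. They were taken as every RNA whose name begins Snhg followed by a digit, plus Gas5. GENCODE M21, the annotation used here on the genome build of the files (GRCm38), lists 16 such genes. Reads were analysed for 7 of them, among 16310 annotated RNAs: Snhg6, Snhg7os, Snhg9, Snhg10, Snhg12, Snhg18 and Snhg20. The other 9, Gas5, Snhg1, Snhg3, Snhg5, Snhg8, Snhg11, Snhg14, Snhg15 and Snhg17, had no entry among these RNAs and were not analysed. The snoRNAs from their introns were analysed. Snhg7os is annotated as an antisense gene, and no snoRNA row lies inside it, so it came in by its name alone.

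Exosomes, the small vesicles that cells release, were collected from 2 kinds of primary culture of dorsal skin, with 3 small RNA libraries each. The ESC group came from epidermal stem cells of C57BL/6 mice aged 3 weeks in telogen, the resting phase of the hair cycle, which were selected by rapid adherence to collagen IV and kept in serum-free keratinocyte medium (K-SFM). The Fb group came from dermal fibroblasts of db/db mice aged 14 weeks, a strain with obesity and diabetes from loss of the leptin receptor, which grew in DMEM with fetal bovine serum and were moved to serum-free medium before collection; the strain label nevertheless reads C57BL/6 for every library. Cell type, strain, age and medium changed together between the groups and cannot be told apart. The comparison asks which non-coding RNAs the vesicles of either cell type carry.

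A host gene is transcribed as a longer RNA whose introns hold snoRNAs. Splicing releases the intron, exonucleases trim it, and a snoRNA protected by its proteins remains. Box C/D snoRNAs guide methylation of ribose in ribosomal RNA, H/ACA snoRNAs guide conversion of uridine to pseudouridine, and scaRNAs do the same for spliceosomal RNAs in Cajal bodies. The spliced exons of many host genes code for no protein, belong to the TOP class whose translation follows growth signals, and are destroyed by nonsense-mediated decay; Gas5 owes its name to its accumulation in growth-arrested cells. The host RNA and its snoRNAs thus come from the same transcripts and have separate fates. In a small RNA library a host gene can appear only as fragments of its RNA, whereas a snoRNA may appear as a fragment or nearly whole.

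The libraries held 9894485 to 11149046 reads for ESC and 6914504 to 8691350 for Fb exosomes, of which 20.1% to 21.3% in ESC and 10.4% to 19.5% in Fb lay outside tRNA genes. Each value was therefore scaled both to all reads and to reads outside tRNA, as CPM, the reads of an RNA times 1000000 over that total. A floor of 3 reads corresponds to 0.269 to 0.303 CPM of all reads for ESC libraries and 0.345 to 0.434 CPM for Fb libraries. Fb replicate 1 stood apart with the lowest share outside tRNA. With all libraries 203 RNAs were called higher in ESC and 149 higher in Fb on the scale of all reads, and without that library 2391 and 294 (edgeR quasi-likelihood test, Benjamini-Hochberg adjusted p of 0.05). The labelled cell types were checked with miRNAs: 3 epithelial miRNAs summed to 7205 to 8453 CPM in the ESC libraries, against 35.5 to 269.6 CPM in the Fb libraries, and 4 mesenchymal miRNAs to 17.97 to 27.7 CPM in the ESC libraries, against 1097 to 2129 CPM in the Fb libraries. Within the mesenchymal sum miR-199a-3p did not follow it in every library, with 0, 9.62 and 7.33 CPM in ESC and 599, 0.0778 and 296 CPM in Fb. Of the 3 blood-cell miRNAs miR-142a-3p was at 0 in all libraries, and their sum was at most 0.482 CPM in ESC and 1.16 CPM in Fb. The endothelial miRNA miR-126a-3p reached 0.579 CPM in ESC and 0.345 CPM in Fb, and 2 neural miRNAs, with miR-9-5p at 0 in all libraries, reached 1.08 CPM in ESC and 0.115 CPM in Fb. The muscle miRNA miR-206-3p had 14.9 to 20.1 CPM in the ESC libraries, against 2.13 to 8.86 CPM in the Fb libraries, and its part in the results was not tested.

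Host genes were rare in the exosomes of both cell types. The 7 genes together had 31.3, 42.7 and 58.5 reads in the ESC libraries, against 41.5, 106 and 35.7 reads in the Fb libraries. All 7 had reads in every ESC library and in Fb replicate 1, 4 had reads in Fb replicate 2 and 6 in Fb replicate 3. The deposited values are estimated counts, and 37 of the 38 host gene values above 0 were not whole numbers (tolerance 1e-06). Only Snhg20 and Snhg7os reached 10 reads in at least 2 libraries.

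Scaled to all reads, the sum of the 7 genes was 4.21 ± 1.28 CPM for ESC and 7.52 ± 4.06 CPM for Fb (SD, n = 3 each), and the groups overlapped. Fewer vesicles that carry an RNA and less of it per vesicle cannot be told apart in such libraries. Scaled to reads outside tRNA it was 20.3 ± 5.67 CPM in ESC and 48.6 ± 14.8 CPM in Fb, and every Fb library lay above every ESC library. Among reads of long non-coding RNAs the order turned round, with 176 ± 66.3 CPM of those reads in ESC and 59.01 ± 16.8 CPM in Fb, again without overlap. Long non-coding RNA genes took 2.25% to 2.54% of all reads in ESC and 8.37% to 16.5% in Fb libraries. The higher mean of the sum in Fb depended on Snhg20. Without it the ratio of ESC to Fb was 1.83 on all reads and 0.996 outside tRNA, against 0.560 and 0.417 with it. Outside tRNA Snhg20 made up 60.7 of 62.7 CPM in Fb replicate 2 and 28.1 of 33.2 CPM in Fb replicate 3. In Fb replicate 1 it made up 10.6 of 49.9 CPM, so the other genes supplied most of that sum. The ratios without Snhg20 average these unlike Fb libraries. They also keep Snhg7os, which holds no snoRNA. Its means on all reads were 1.32 CPM in ESC and 0.339 CPM in Fb, and outside tRNA 6.37 and 3.10 CPM. Sums without it were not taken. The summed level of these host genes therefore had no direction that held across totals.

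**Figure D1:**
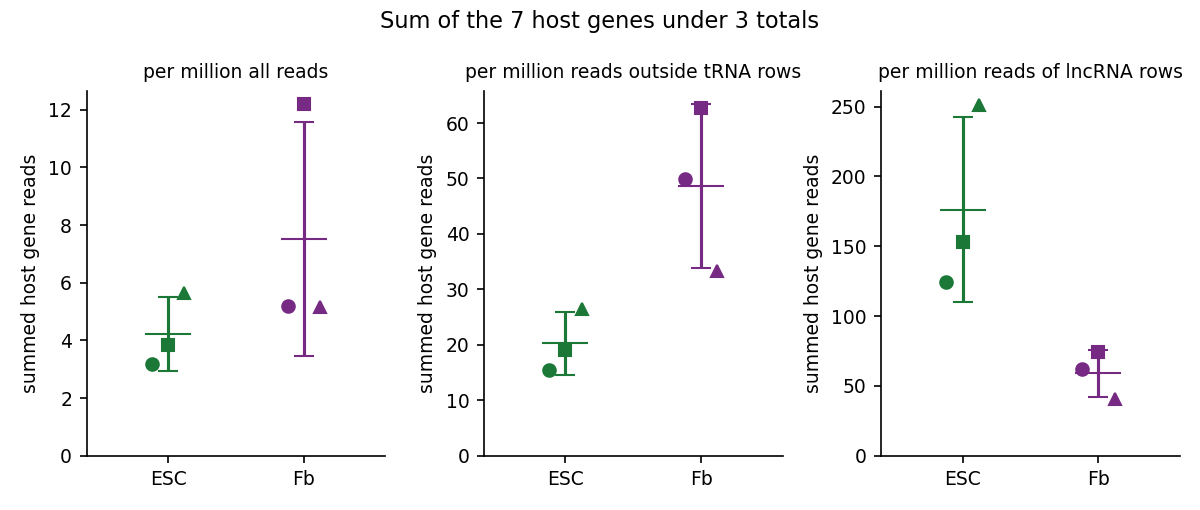
Summed CPM of the 7 host genes, out of all reads (left), of reads outside tRNA genes (middle) and of long non-coding RNA reads (right), in ESC and Fb exosomes. Circles, squares and triangles are replicates 1, 2 and 3, with the mean and SD; Fb lies above ESC without overlap in the middle panel (20.3 and 48.6 on average in ESC and Fb) and below it in the right one (176 and 59.01).

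Snhg20 (chr11:117076008-117078955, plus strand, long intergenic RNA with 7 transcripts) was the host gene with the most reads, at rank 791 among 8407 long non-coding RNAs. It had 10.3, 13.7 and 7.75 reads in ESC libraries, against 8.85, 103 and 30.2 reads in Fb libraries. In CPM of all reads these were 1.04, 1.22 and 0.747 in ESC and 1.11, 11.8 and 4.37 in Fb. Fb replicates 2 and 3 were high, and Fb replicate 1 lay within the ESC range. Outside tRNA the values were 5.04, 6.09 and 3.51 CPM in ESC and 10.6, 60.7 and 28.1 CPM in Fb, so the groups separated.

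The fitted log2 fold change of Snhg20, ESC over Fb, was -2.50 (SE 1.08, edgeR adjusted p = 0.215) on all reads and -2.74 (SE 1.23, adjusted p = 0.331) outside tRNA. Neither passed the threshold. The direction was the same under every alternative, from -5.08 to -1.41 on all reads, but the call depended on the fit: adjusted p was 0.0391 with TMM factors, 3.06e-06 with DESeq2, 0.234 with limma-trend and 0.00533 without Fb replicate 1. With TMM factors on all reads 3.63% of all RNAs tested were called higher in ESC and 8.17% higher in Fb. The value nearest 0 came without Fb replicate 2, the library with the most reads of this gene. With scaling to totals the median log2 fold change of all RNAs tested was 0.81, and with TMM factors 0.07. Outside tRNA it was 0.06 with totals. Without Fb replicate 1 this median was 2.44 on all reads and 2.23 outside tRNA, both with totals.

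Snhg7os (chr2:26640372-26645944, plus strand) leaned the other way. It had 6.87, 17.97 and 17.1 reads in ESC libraries, against 6.91, 0 and 1.04 reads in Fb libraries. On all reads this was 1.32 ± 0.541 CPM in ESC and 0.339 ± 0.462 CPM in Fb (SD, n = 3 each). ESC replicate 1 lay below Fb replicate 1, so the groups overlapped, while the other Fb libraries were under the floor. Outside tRNA the log2 fold change was 1.14 (SE 1.28, edgeR adjusted p = 0.9999), and on all reads the gene did not pass the filter on low counts. Without Fb replicate 1 it was called higher in ESC, with 3.90 outside tRNA (edgeR adjusted p = 0.0167) and 4.11 on all reads (adjusted p = 0.00972). A call without that library is common: outside tRNA 59.3% of all RNAs tested were then called higher in ESC and 6.17% higher in Fb, and on all reads 70.2% and 8.63%.

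On all reads 1 of the 7 host genes could be tested and 0 were called by edgeR, with 1 at an unadjusted p under 0.05; DESeq2 called 1 and limma-trend 0. Of all RNAs tested, edgeR called 6.77% higher in ESC and 4.97% higher in Fb, DESeq2 5.6% and 12.4%, and limma-trend 9.7% and 5.4%. Outside tRNA 2 could be tested and 0 were called, with 1 at an unadjusted p under 0.05, where DESeq2 called 1 and limma-trend 0, and edgeR called 4.12% of all RNAs tested higher in ESC and 2.36% higher in Fb, DESeq2 5.2% and 9.73%, and limma-trend 6.15% and 2.74%.

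The remaining 5 host genes stayed under 10 reads in every library except Snhg12 in ESC replicate 3. Snhg12 had 2.35, 2.96 and 19.1 reads in ESC, against 7.33, 2 and 2.1 reads in Fb libraries. Snhg6 had 2.01, 3.67 and 4.50 reads in ESC and 5.18, 0 and 0.583 reads in Fb, and Snhg18 had 2.28, 2.53 and 4.23 reads in ESC and 8.09, 0 and 0.583 reads in Fb. Snhg10 had 1.84, 0.847 and 3.01 reads in ESC and 4.70, 1.13 and 1.14 reads in Fb.

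For Snhg6, Snhg10 and Snhg18 Fb replicate 1 was the highest of all libraries on both scales. The other Fb libraries were the lowest for Snhg6 and Snhg18, whereas ESC replicate 2 was the lowest for Snhg10. The groups of all of these genes therefore overlapped on both scales. Snhg9 had 5.70, 1.02 and 2.83 reads in ESC and 0.433, 0.333 and 0 reads in Fb. On all reads its ESC libraries lay above its Fb libraries, and outside tRNA ESC replicate 2 fell below Fb replicate 1. Summed over libraries, Snhg9 had 9.56 reads in ESC and 0.767 in Fb, a depth at which no fold is given. The rate ratios of the summed reads of the other 4, ESC over Fb on all reads, were 1.64 for Snhg12 (95% interval 0.773 to 3.71), 1.25 for Snhg6 (0.412 to 4.19), 0.751 for Snhg18 (0.264 to 2.14) and 0.644 for Snhg10 (0.179 to 2.24). These exact intervals cover counting error only, and a difference was not detectable at this depth.

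Annotated overlaps bear on these reads. Snhg9 lies opposite Rps2, a ribosomal protein gene, and Snhg6 opposite Mcmdc2; the use of strand in counting is not given in the sources used here, so reads of overlapping genes cannot be told apart. Per kilobase of exon, Snhg9, the shortest host with 183 exon bases, had the highest mean level in ESC, 1.71 CPM per kilobase (RPKM) with single libraries from 0.502 to 3.15. The other 6 averaged 0.194 to 0.359 RPKM in ESC, and the ranges of their libraries overlapped. In Fb exosomes Snhg20 averaged 2.06 RPKM, and the other 6 averaged 0.0858 to 0.557 RPKM.

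**Figure D2:**
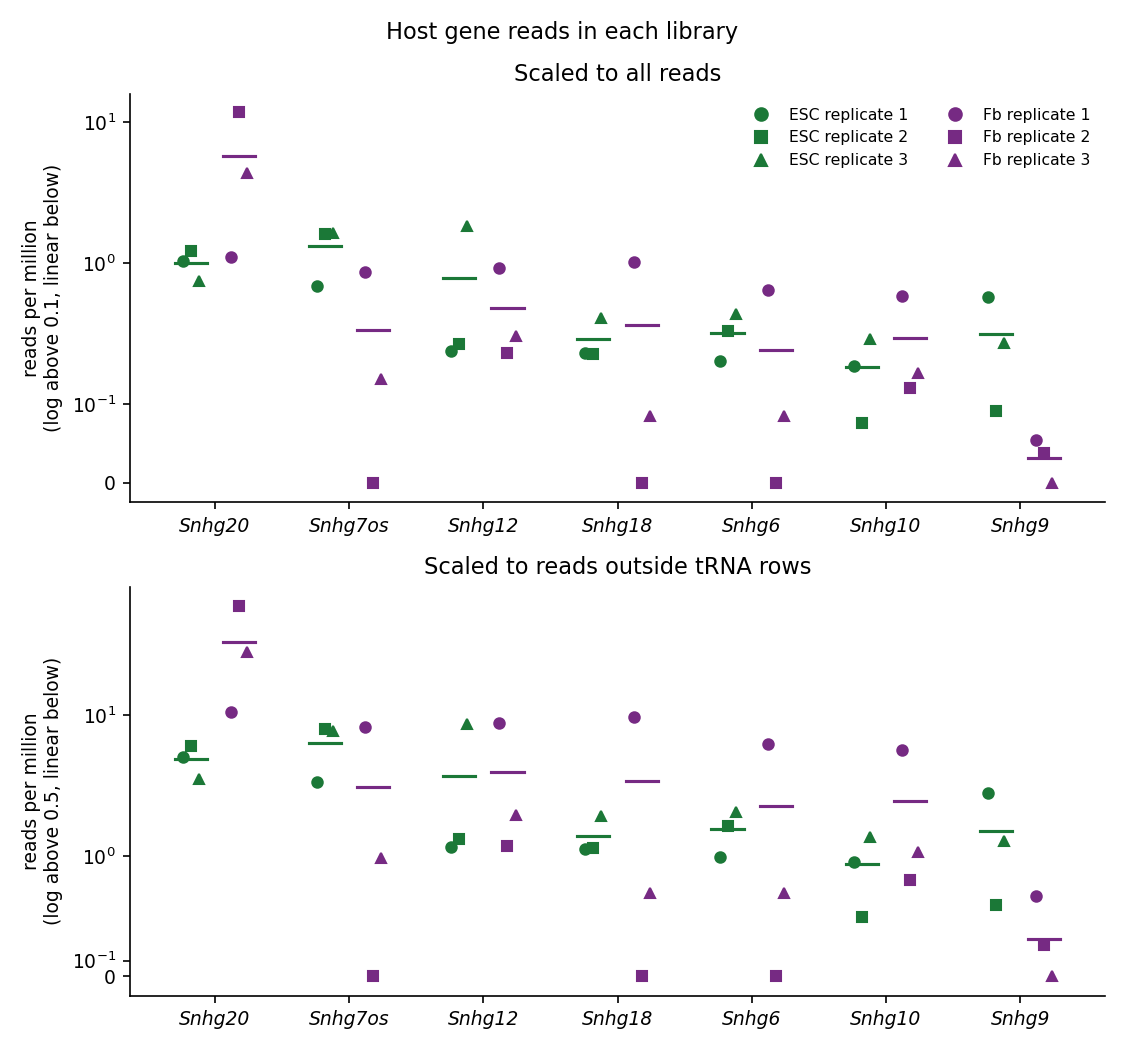
CPM of each host gene in each library, scaled to all reads (top) and to reads outside tRNA genes (bottom), ESC left of Fb, on an axis that is logarithmic above and linear below the value given; lines are means of 3. Snhg20 is high in Fb replicates 2 and 3 (11.8 and 4.37 CPM of all reads), and for Snhg6, Snhg10 and Snhg18 Fb replicate 1 is the highest library.

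Inside the 16 annotated host genes, on the same strand, lay 245 snoRNA or scaRNA rows, 208 of them in Snhg14, which carries the large imprinted arrays expressed in brain. Of the 245, 71 had reads and 20 reached 10 reads in at least 2 libraries, and 17 of these are described (at most 4 per host). By annotation 212 of the 245 lay in an intron of every transcript of the host and 33 in an exon of at least 1 transcript. Where the host of such a snoRNA has a row of its own, in Snhg12 and Snhg20, reads can belong to either row. Together the 245 rows had 90.4 ± 13.6 CPM of all reads in ESC and 74.3 ± 61.6 CPM in Fb (SD, n = 3 each). The ESC libraries ranged from 77.4 to 105 CPM; Fb replicate 1, with 145 CPM, lay above them and the other Fb libraries, with 39.7 and 37.9 CPM, below. They made up 15.4% to 16.8% of all snoRNA and scaRNA reads in ESC and 14.2% to 26.5% in Fb libraries.

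**Figure D3:**
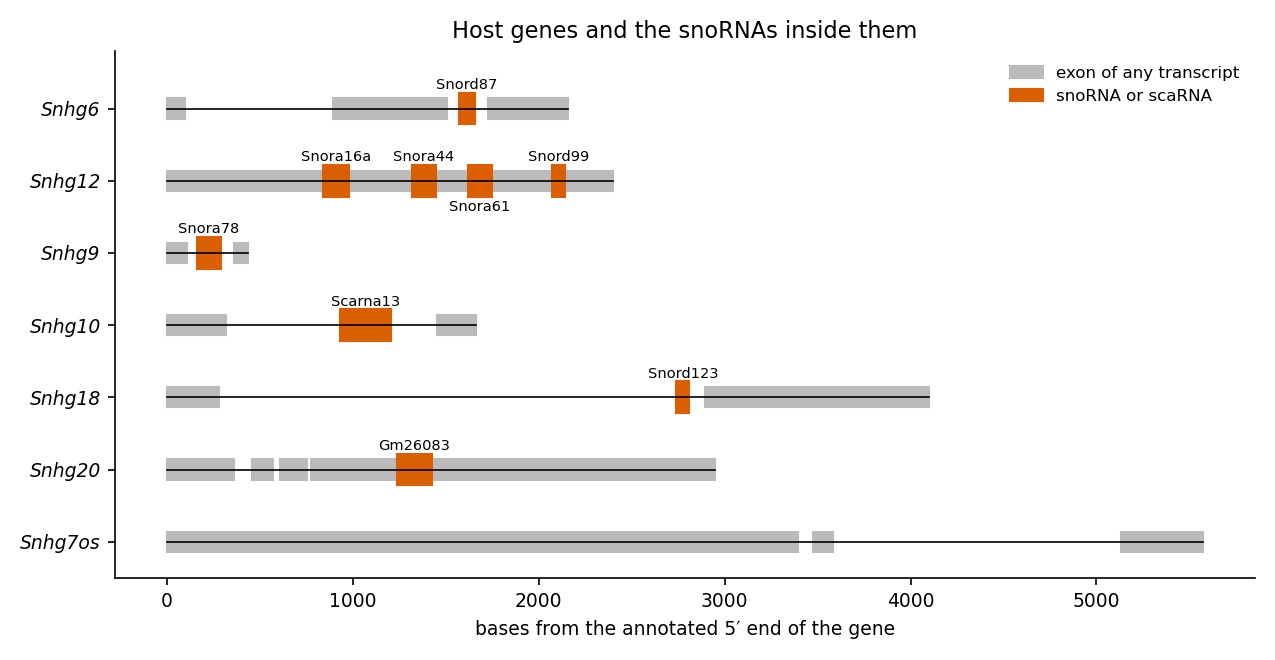
Annotated exons (grey, union over transcripts) and snoRNAs or scaRNAs (orange) of the 7 host genes, as bases from the annotated 5′ end. Snord87, Snora78, Scarna13 and Snord123 lie in introns of every transcript, the snoRNAs of Snhg12 and the scaRNA of Snhg20 also under exons of some, and Snhg7os holds none.

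Snord87, the box C/D snoRNA in an intron of Snhg6, was the snoRNA whose difference passed the test. It had 282, 265.5 and 321.5 reads in ESC libraries, against 36, 6 and 25 reads in Fb libraries. On all reads this was 27.8 ± 3.65 CPM in ESC and 2.94 ± 1.995 CPM in Fb, and outside tRNA 134 ± 14.1 CPM in ESC and 23.4 ± 19.9 CPM in Fb (SD, n = 3 each). Every ESC library lay above every Fb library on both scales. Snord87 rose in ESC on all reads, by 3.24 on the log2 scale (SE 0.93, edgeR adjusted p = 0.0433). The call was close to the threshold: outside tRNA the log2 fold change was 2.53 (SE 1.10, edgeR adjusted p = 0.300), and on all reads adjusted p ran from 0.00413 to 0.179 over 13 alternatives, of which 8 missed the threshold, with a positive fold change in all. For its host Snhg6 the rate ratio was 1.25 (0.412 to 4.19, counting error only). The annotated sequence of Snord87 (chr1:9942463-9942549, minus strand, GRCm38) is shown beside that of Snord99, the other abundant box C/D snoRNA, with TGATGA in the first 20 bases (box C) and CTGA in the last 20 (box D) in capitals.
Snord87: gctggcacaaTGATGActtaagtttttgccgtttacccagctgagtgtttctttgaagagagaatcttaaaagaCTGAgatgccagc
Snord99: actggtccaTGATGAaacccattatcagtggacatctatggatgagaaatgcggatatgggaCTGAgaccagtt
Both letter runs, searched on the RNA strand only, occur in 20.2% of the 1558 snoRNA and scaRNA transcripts of GENCODE.

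Snhg12 (chr4:132308623-132311024, plus strand) holds 4 snoRNAs, of which Snora44 and Snord99 had the most reads. Snora44, an H/ACA snoRNA, had 208, 220.0 and 257 reads in ESC libraries, against 28, 64 and 37.5 reads in Fb libraries. Every ESC library lay above every Fb library on both scales, with 21.8 ± 2.63 CPM of all reads in ESC and 5.43 ± 1.93 CPM in Fb (SD, n = 3 each). The log2 fold change was 1.999 on all reads (SE 0.79, edgeR adjusted p = 0.162) and 1.56 outside tRNA (SE 0.95, adjusted p = 0.725), with -0.14 under TMM factors on all reads, so neither the call nor the direction held across scalings. Without Fb replicate 1 it was called higher in ESC, with 1.76 (edgeR adjusted p = 0.0108). The median of all RNAs tested was then 2.44, above the value of Snora44, and 70.2% were called higher in ESC.

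Snord99 had 130, 155.5 and 196 reads in ESC, against 563.5, 38 and 64 reads in Fb libraries. Fb replicate 1 was above and the other Fb libraries below the ESC libraries. Its log2 fold change was -0.87 on all reads (SE 1.01, edgeR adjusted p = 0.729), and 1.17 without Fb replicate 1 (adjusted p = 0.0627). Without that library the median of all RNAs tested was 2.44, so Snord99 and Snora44 both lay below it. Outside tRNA it was -1.77 (SE 1.15, edgeR adjusted p = 0.828). DESeq2 called Snord99 higher in Fb outside tRNA, at -1.45 (adjusted p = 0.0380), as it did 9.73% of all RNAs tested. On all reads Snord99 missed the threshold with DESeq2 (adjusted p = 0.0512). The fitted changes of Snora44 and Snord99 had opposite signs with all libraries scaled to totals, the same positive sign without Fb replicate 1 and the same negative sign with TMM factors, and their difference was not tested. Snord99 in Fb replicate 1 supplied 563.5 of the 605 reads of the 4 rows of Snhg12 in that library. Snora16a, an H/ACA snoRNA, had 6, 0 and 1 reads in ESC and 12.7, 14 and 2 reads in Fb, and Snora61, also H/ACA, had at most 1 read in ESC and 2 in Fb. The sequence of Snora44 (chr4:132309941-132310069, plus strand) is given for comparison with that of Snora78, the H/ACA snoRNA of Snhg9 (chr17:24719676-24719803, minus strand). The capitals mark ACA in the last 9 bases, which 47.8% of the same transcripts hold and the annotated Snora44 does not.
Snora44: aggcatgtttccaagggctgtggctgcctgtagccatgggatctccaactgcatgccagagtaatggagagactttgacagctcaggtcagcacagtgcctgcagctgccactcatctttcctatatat
Snora78: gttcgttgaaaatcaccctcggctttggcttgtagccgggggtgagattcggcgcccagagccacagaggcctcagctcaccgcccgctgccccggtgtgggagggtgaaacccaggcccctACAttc
Snora78 had 16.5, 35 and 13.8 reads in ESC, against 0.183, 13 and 7 reads in Fb libraries. On all reads Fb replicate 2 lay above ESC replicate 3, and the groups overlapped. The log2 fold change was 1.27 (SE 1.13, edgeR adjusted p = 0.654), with -0.84 under TMM factors.

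The last 3 host genes have 1 snoRNA or scaRNA row each. Snord123, a box C/D snoRNA of Snhg18, had 4, 3 and 19 reads in ESC and 21.5, 5 and 4 reads in Fb. As for its host, the highest Fb library was replicate 1. Scarna13 of Snhg10 had 1.50, 0.5 and 0 reads in ESC and 3.83, 5 and 6 reads in Fb. The scaRNA of Snhg20, listed as Gm26083, had 1.33, 1 and 2.67 reads in ESC and 0.667, 0 and 0 reads in Fb.

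**Figure D4:**
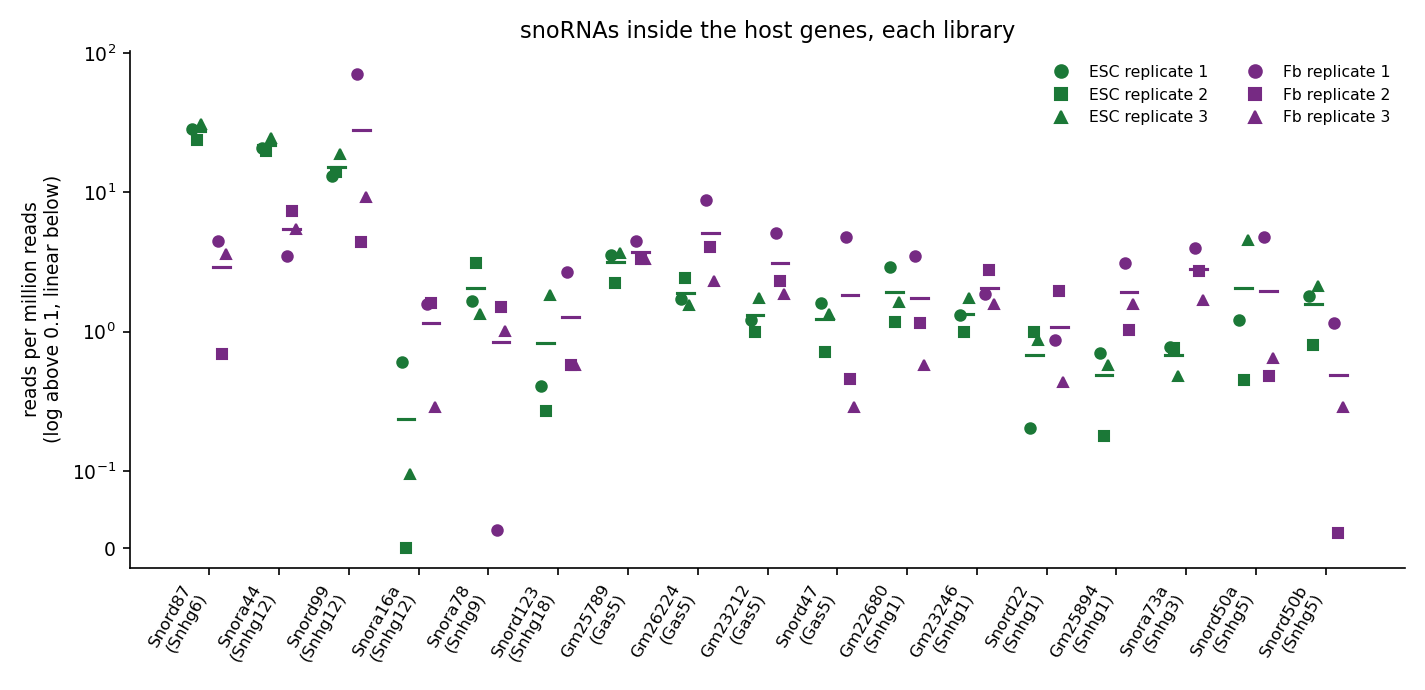
CPM of all reads of 17 snoRNAs inside host genes (host in brackets) in each library, ESC left of Fb; lines are means of 3 and the axis is logarithmic above 0.1. Snord87 and Snora44 are higher in every ESC library than in every Fb library, and Fb replicate 1 is far above the rest for Snord99 (70.5 CPM).

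In every library with host reads, Snhg6 and Snhg12 had fewer reads of their own than of their snoRNAs. Summed over the ESC libraries, Snhg6 had 85.4 reads of Snord87 per read of its own, and 71.9 to 96.4 with 1 library left out. In Fb this ratio was 11.6 and rested on 5.76 host reads, of which Fb replicate 1 held 5.18. Without that library 0.583 host reads remained, too few for a ratio. Snhg12 had 48.2 reads of its 4 snoRNAs per host read in ESC and 72.4 in Fb. These snoRNAs also lie under exons of some Snhg12 transcripts, so the division of reads between host and snoRNA is uncertain. ESC replicate 3 held 19.1 of the 24.4 ESC reads of Snhg12, and without it the ESC ratio was 136, so the order of the groups turned round.

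The other ratios also moved with single libraries. Snhg9 had 6.84 reads of Snora78 per host read in ESC (12.7 without ESC replicate 1 and 3.55 without ESC replicate 2); in Fb it had 0.767 host reads in all, and no ratio is given. Snhg18 had 2.87 in ESC (1.45 without ESC replicate 3) and 3.52 in Fb. Without Fb replicate 1 Snhg18 had 0.583 host reads left in Fb, and no ratio is given. Snhg10 had 0.351 in ESC (0.130 without ESC replicate 1 and 0.744 without ESC replicate 3) and 2.13 in Fb (4.84 without Fb replicate 1). Snhg20 was the host with fewer scaRNA reads than host reads in every library, with 0.158 per host read in ESC (0.0975 without ESC replicate 3) and 0.00471 in Fb (0.0171 without Fb replicate 2 and 0 without Fb replicate 1). No order of the groups is read from these ratios.

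Per kilobase, Snord87 averaged 319 RPKM in ESC and 33.8 RPKM in Fb, while Snhg6 averaged 0.281 RPKM in ESC and 0.213 RPKM in Fb. Host reads per read of snoRNA or scaRNA, over the 6 host genes with such a row, were 0.0376, 0.0363 and 0.0510 in ESC and 0.0518, 0.721 and 0.236 in Fb libraries, an average of 0.0416 ± 0.0082 in ESC and 0.337 ± 0.346 in Fb (SD, n = 3 each). Without Fb replicate 2, which held 103 of the 142 Fb reads of Snhg20, the Fb average was 0.144. Restricted to pairs of the textbook list, which leaves out Snhg10, Snhg18 and Snhg20, the averages were 0.0201 in ESC and 0.019 in Fb.

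A miRNA lies inside the scaRNA of Snhg20. It gave more reads than the scaRNA in every library except Fb replicate 1, and in ESC more than the host. Mature miR-6516-5p (chr11:117077370-117077391, plus strand) covers bases 128 to 149 of Gm26083 (chr11:117077243-117077435, plus strand). The first of the lines below gives the RefSeq mature sequence (GRCm38.p6) with its seed, bases 2 to 8, in capitals, and the next the annotated scaRNA with the miRNA in capitals.
miR-6516-5p: uUUGCAGUaacagguguggaca
Gm26083: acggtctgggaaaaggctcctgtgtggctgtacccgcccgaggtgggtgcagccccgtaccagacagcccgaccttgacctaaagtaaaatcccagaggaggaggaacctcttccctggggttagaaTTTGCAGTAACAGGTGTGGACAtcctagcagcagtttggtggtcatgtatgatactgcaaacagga
It had 83, 81 and 92 reads in ESC libraries, against 0, 10.0 and 1 reads in Fb libraries. All ESC libraries were above all Fb libraries, whereas the mean of Snhg20 itself was lower in ESC. This miRNA was picked out after its values were seen. Its log2 fold change was 4.17 on all reads (SE 1.28, edgeR adjusted p = 0.0580) and 3.96 outside tRNA (SE 1.42, adjusted p = 0.148), and it did not pass the threshold on either scale. Over 13 alternatives on all reads adjusted p ran from 0.00309 to 0.727, with 5 of them past the threshold, and the log2 fold change was positive in all, at 1.51 with DESeq2, 2.00 with TMM factors and 6.65 without Fb replicate 2. The summed reads of the groups gave a rate ratio of 17.5 on all reads (95% interval 9.61 to 35.5, counting error only). The arm miR-6516-3p had 0, 0 and 3 reads in ESC and 0, 0 and 1 read in Fb. The separate entry for the hairpin, mir-6516, had 1.33, 1.29 and 2 reads in ESC and 0.667, 1 and 0 reads in Fb. A second miRNA, miR-3069-3p (chr12:105031078-105031099, minus strand), covers bases 251 to 272 of Scarna13 in Snhg10, and had 9, 6 and 10.0 reads in ESC libraries and 0 reads in all 3 Fb libraries, where the floor of 3 reads is 0.345 to 0.434 CPM.

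**Figure D5:**
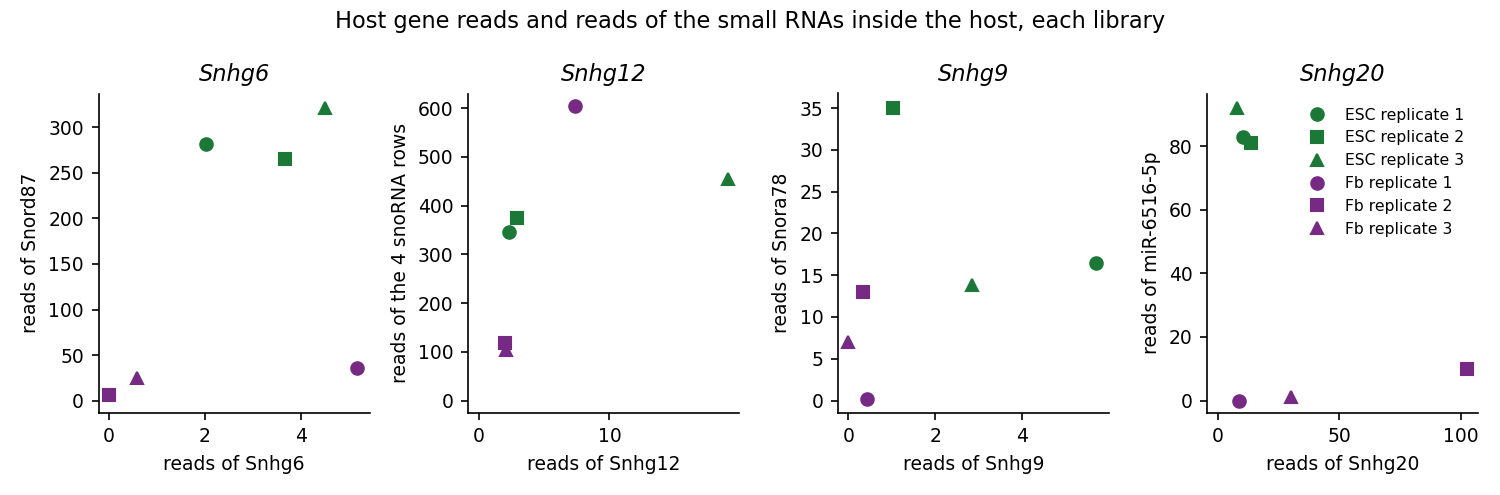
Reads of 4 host genes (horizontal) against reads of the snoRNAs or miRNA inside them (vertical), 1 point per library, linear axes. Snord87 separates ESC from Fb (265.5 to 321.5 and 6 to 36 reads) while Snhg6 does not, and for Snhg20 the libraries with the most host reads (103 and 30.2) had 10 and 1 reads of miR-6516-5p.

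Hosts that were not analysed here are visible through their introns. Gas5 holds 9 such rows, all with reads, which summed to 116, 95 and 122 reads in ESC and 299, 94 and 61 reads in Fb libraries. Snhg1 holds 8, with 70.0, 55 and 61 reads in ESC and 91.9, 67 and 32 reads in Fb. For both hosts the groups overlapped on all reads, with Fb replicate 1 the highest library. Gm23212 had 12, 11 and 18 reads in ESC and 41, 20.0 and 13 reads in Fb, and in CPM of all reads every Fb library was above every ESC library. Gm26224 had 17, 27 and 16 reads in ESC and 71, 35 and 16 reads in Fb, which overlapped on all reads and separated outside tRNA.

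In read counts Gm25789 was the most even of the 4 described, with 35, 25 and 38 reads in ESC and 36, 29 and 23 reads in Fb. Snord47 had 16, 8 and 14 reads in ESC and 38, 4 and 2 reads in Fb, where Fb replicate 1 was above and the other Fb libraries below every ESC library. The log2 fold changes on all reads were -1.24 for Gm23212, -1.42 for Gm26224, -0.24 for Gm25789 and -0.58 for Snord47 (SE 0.94, 0.94, 0.87 and 1.12; edgeR adjusted p = 0.587, 0.519, 0.896 and 0.817). Gm23212 and Gm26224 were called higher in Fb with TMM factors (edgeR adjusted p = 0.0261 for both), while without Fb replicate 1 they were at -0.67 and -0.74 (adjusted p = 0.239 and 0.208). Snord47 turned round without Fb replicate 1 and was then called higher in ESC, at 1.64 (edgeR adjusted p = 0.0450). In that fit the median of all RNAs tested was 2.44, above the value of Snord47, and 70.2% were called higher in ESC. No difference between these 4 RNAs was tested. The 4 sequences (chromosome 1, plus strand, GRCm38, starting at 161036682, 161035394, 161038308 and 161038082) show the box C/D letters in capitals, as above.
Gm23212: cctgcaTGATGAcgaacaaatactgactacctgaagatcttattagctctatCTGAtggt
Gm26224: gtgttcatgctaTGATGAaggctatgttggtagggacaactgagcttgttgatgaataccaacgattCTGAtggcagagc
Gm25789: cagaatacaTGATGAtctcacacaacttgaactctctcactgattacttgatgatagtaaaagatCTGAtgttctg
Snord47: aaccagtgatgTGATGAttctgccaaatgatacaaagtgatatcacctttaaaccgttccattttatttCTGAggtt

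In Snhg1 introns Gm22680 had 29, 13 and 17 reads in ESC and 28, 10.0 and 4 reads in Fb, and Gm23246 had 13, 11 and 18 reads in ESC and 14.9, 24 and 11 reads in Fb. Snord22, the longest of them, had 2, 11 and 9 reads in ESC and 7, 17 and 3 reads in Fb. These 3 overlapped on all reads. Gm25894 had 7, 2 and 6 reads in ESC and 25, 9 and 11 reads in Fb, with every Fb library above every ESC library. Neither Gm25894 nor Snord22 passed the filter on low counts.

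Snora73a of Snhg3, a long H/ACA snoRNA, had 7.67, 8.57 and 5 reads in ESC, against 31.99, 23.9 and 11.7 reads in Fb libraries. Every Fb library lay above every ESC library on both scales. The log2 fold change was -1.999 (SE 0.92, edgeR adjusted p = 0.264) on all reads and -2.61 (SE 1.22, adjusted p = 0.374) outside tRNA, and neither passed. It was called higher in Fb with TMM factors (edgeR adjusted p = 0.0168) and without Fb replicate 1 (adjusted p = 0.0201). Its near copy Snora73b lies in the same host, and division of shared reads between the copies makes either value uncertain. The gene Rcc1 overlaps Snhg3 on the same strand, and which transcripts the snoRNAs came from was not tested.

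Snhg5 holds a nearly identical pair. Snord50a (chr9:88521529-88521600, minus strand) and Snord50b (chr9:88521797-88521868, minus strand) are each 72 bases long and differ by 1 substitution, C50A, counted from the 5′ end with the base of Snord50a first, so the division of reads between them is uncertain.
Snord50a: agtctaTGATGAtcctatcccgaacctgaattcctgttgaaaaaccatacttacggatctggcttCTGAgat
Snord50b: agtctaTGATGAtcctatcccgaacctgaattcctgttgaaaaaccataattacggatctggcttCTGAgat
Snord50a had 12, 5 and 47 reads in ESC and 38.2, 4.17 and 4.50 reads in Fb, and Snord50b had 18, 9 and 22 reads in ESC and 9.17, 0.167 and 2 reads in Fb. Neither passed, with log2 fold changes of 0.09 and 1.72 on all reads (SE 1.20 and 1.13; edgeR adjusted p = 0.974 and 0.512). Without Fb replicate 1 Snord50b was called higher in ESC, at 3.47 on all reads (edgeR adjusted p = 0.0158) and 3.23 outside tRNA (adjusted p = 0.0255). In those fits 70.2% and 59.3% of all RNAs tested were called higher in ESC. Their sum was 30.0, 14 and 69 reads in ESC and 47.3, 4.33 and 6.50 reads in Fb, and the groups overlapped.

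Over all hosts, 13 snoRNA rows could be tested on all reads, of which 1 (Snord87) was called higher in ESC and 0 higher in Fb by edgeR, with 2 at an unadjusted p under 0.05. Against the 6.77% and 4.97% of all RNAs tested given above, this share was near the background. Their median log2 fold change was -0.24, beside 0.81 for all RNAs tested and -0.36 for all 55 snoRNA rows tested, these included. Outside tRNA 13 were tested and 0 called, with 1 at an unadjusted p under 0.05, and the median was -0.84, beside 0.06 for all RNAs tested and -1.29 for all 60 snoRNA rows tested. On all reads DESeq2 called 1 of the 13 higher in ESC and 5 higher in Fb, against 5.6% and 12.4% of all RNAs tested, and limma-trend called 1 higher in ESC, against 9.7%.

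Of 4 other non-coding snoRNA hosts, Zfas1, Dancr and Rian were not analysed here. Epb41l4aos, the host with a row, had 1.33, 5.33 and 3.15 reads in ESC and 3.51, 1 and 0.333 reads in Fb libraries, as low as most of the Snhg genes, and the groups overlapped.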

How the data were processed

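Per the labels' protocols, culture medium was centrifuged, filtered and ultracentrifuged, exosomal RNA was isolated with columns, and CleanTag small RNA libraries were cut from a gel by size. The submitters' processing notes name FastQC, cutadapt and build GRCm38. No source used here gives the aligner, the counting tool or the use of strand. The deposited values are estimated counts per annotated RNA, as the authors' files hold them; they were rounded before model fitting.

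GENCODE M21 gave RNA classes and positions, RefSeq (GRCm38.p6) the miRNA sequences. CPM used the sum of all rows or of rows outside tRNA, and RPKM the union of exons. edgeR 4.0.16 (quasi-likelihood test, those totals without further factors, filterByExpr with minimum count 10 and minimum total 15, all rows, Benjamini-Hochberg) in R 4.3.3 gave fold changes of ESC over Fb. Alternatives were TMM factors, DESeq2 1.42.0 (its size factors in edgeR, and its own test), limma 3.58.1 (limma-trend, prior count 2), no filter, minimum count 5, a replicate block, and each library left out in turn. A trial of edgeR on simulated counts used TMM factors and the same spread for all RNAs. It therefore does not test the fits scaled to totals, or libraries as uneven as those of Fb.

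Named were host genes and, per host, at most 4 snoRNAs with at least 10 reads in 2 libraries. Host genes below that limit and the miRNAs inside host genes are given as well, since they are few. The members and lists were chosen with earlier results of these data known. The labels call the libraries biological replicates but tie none to an animal, so a p-value here reflects variation among libraries. Reads carry no molecular identifiers.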

Additional observations from a re-analysis of the deposited data

How the results depend on the processing

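Of the host genes, 5 of 7 did not reach 10 reads in 2 libraries. The host genes called, 0 on both scales, were 1 with TMM factors, DESeq2 size factors or DESeq2, and 0 to 2 with a library left out. Of the snoRNA rows, 1 was called on all reads and 3, 3 and 6 with those 3 settings, which called 3.63%, 3.53% and 5.6% of all RNAs tested higher in ESC and 8.17%, 8.37% and 12.4% higher in Fb. It was 0 without the count filter (2.07% and 1.69%) or with minimum count 5 (4.34% and 3.1%), and 0 to 5 with a library left out. Outside tRNA 0 became 3, 3 and 7 (3.14%, 2.94% and 5.2% of all RNAs in ESC, 5.74%, 5.71% and 9.73% in Fb), and 0 to 4. The highest counts with a library left out came without Fb replicate 1, where 70.2% of all RNAs tested on all reads and 59.3% outside tRNA were called higher in ESC. The ratio of the host sums, 0.560 on all reads and 0.417 outside tRNA, was 1.83 and 0.996 without Snhg20 (Snhg7os kept) and 2.99 among long non-coding RNA reads. Host reads per snoRNA read in ESC were 0.0201 with textbook pairs only. With a library left out, which was added after seeing the data, they were 0.0369 to 0.0443 in ESC and 0.144 to 0.479 in Fb. The causes were not tested.

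Some log2 fold changes changed sign. With TMM factors, DESeq2 size factors and DESeq2 on all reads, Snora44 was at -0.14, -0.20 and -0.19, Snora78 at -0.84, -0.88 and -1.22, Snord50a at -0.55, -0.60 and -0.59, and Gm22680 at -0.98, -1.04 and -1.05. Outside tRNA Snora44 was at -0.23, -0.26 and -0.26, and Snora78 at -0.93, -0.96 and -1.29. With limma-trend on all reads Snord47 was at 0.22 and Snord99 at 0.079. Leaving out a library gave ranges on all reads of -1.08 to 1.64 for Snord47, -1.38 to 1.17 for Snord99, -1.21 to 1.97 for Snord50a and -0.31 to 1.10 for Gm22680. Outside tRNA they were -1.99 to 1.42 for Snord47, -2.32 to 0.86 for Snord99, -1.32 to 1.71 for Snord50a and -1.08 to 0.89 for Gm22680. The positive ends of Snord47 and Snord99 came without Fb replicate 1, where Snord47 passed the threshold on all reads (adjusted p = 0.0450) and not outside tRNA. The median of all RNAs tested was then 2.44 on all reads and 2.23 outside tRNA, above both snoRNAs.

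Libraries with the same number did not deviate together (correlations of -0.00295, 0.0822 and -0.0522). No pairing by number was therefore seen, although so few libraries cannot exclude it. The replicate block left 0 host genes called and 1 snoRNA on all reads, and turned Snord47 to 0.30 and Snord99 to 0.23.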
